A study of Mus musculus with 32 samples.

Results

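The genes described here make, load and regulate MHC class I: the heavy chains H2-K1 and H2-D1, the light chain B2m, the peptide transporter subunits Tap1 and Tap2, the loading factor Tapbp, the 3 inducible catalytic subunits of the immunoproteasome (Psmb8, Psmb9 and Psmb10) and the transactivator Nlrc5. They were taken by symbol from the Ensembl identifiers of the count table. All 10 were found among its 56953 genes, and all 10 were among the 14427 genes kept by the filter on low counts and tested. RNA was sequenced from mouse macrophages that had been cultured out of bone marrow (femurs and tibias, donors 8 to 12 weeks old) in medium with L929 supernatant, which supplies M-CSF. The strain background of every library was C57BL/6J. The genotype labels were Acod1 WT (WT) and Acod1 KO (KO). Acod1, also called Irg1, encodes the enzyme that makes itaconate. Cells of each genotype were left untreated (control) or received for 24 h the synthetic glucocorticoid dexamethasone at 100 nM (dex), bacterial lipopolysaccharide at 100 ng with no volume given (LPS), or both (dex+LPS). Each of the 8 groups held 4 libraries, 32 in all. The protocol names C57BL/6J mice, Irg1+/+ mice and Irg1-/- mice as marrow donors, and the labels do not say which of the first 2 gave a WT library. Whether the replicates of a group are separate animals is likewise not labelled. A p-value here covers the spread among libraries within groups, pooled over the 8 groups, and that spread may be technical. It may be smaller than the spread of a single group.

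MHC class I molecules sit on the surface of nearly all nucleated cells and show peptides cut from the cell's own proteins to CD8+ T cells. Proteasomes cut the proteins, and in cells exposed to interferon or inflammatory signals the catalytic subunits Psmb5, Psmb6 and Psmb7 can be replaced by Psmb8, Psmb9 and Psmb10. The Tap1 and Tap2 pair carries peptides into the endoplasmic reticulum, where tapasin (Tapbp) bridges the transporter to a heavy chain paired with beta-2 microglobulin (B2m). Nlrc5 is a regulator that acts at class I promoters, and interferon signalling, in which Irf1 takes part, is known to raise most of these genes.

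Libraries held 17559079 to 25049200 assigned read pairs. Levels are given as CPM, counts per library scaled to a common size with TMM, and effects as log2 fold changes ± SE from edgeR's quasi-likelihood test, with calls at 0.05 after Benjamini-Hochberg adjustment over all tested genes. In the control and dex groups 14 of the 16 libraries came from lane 3 by the header names, 1 from lane 2 and 1 was merged; all WT libraries with LPS came from lane 3 and all KO libraries with LPS from lane 2. Replicate 3 of WT LPS stood apart from its group, with a chi-square per degree of freedom of 16.1 to 16.7 against the other 3 libraries, where no other pair within a group exceeded 5.57. It was the highest of its group for 7 of the 10 genes, and values without it are given beside the WT LPS comparisons and the genotype difference that rest on it. Group means of Acod1, WT before KO, were 9.886 and 5.822 CPM in control, 6483 and 4995 CPM with LPS, and 2738 and 3933 CPM with dex+LPS. KO against WT it was lower in control (-0.77) and with LPS (-0.38) but higher with dex+LPS (0.52 ± 0.041), and the KO minus WT difference of its dex effect under LPS was 0.90 ± 0.057. The deleted part of the gene is not given in the sources used here, so gene-level counts do not check the genotype labels, and WT and KO below name the labels of libraries. Summed over 8 genes, macrophage markers stood at 17480 to 31430 CPM in every library. The sums were at most 98.94 CPM for 7 neutrophil markers, 106.9 CPM for 6 B cell markers, 4.958 CPM for 9 T and NK cell markers and 17.27 CPM for 6 dendritic cell markers. In such bulk samples, fewer cells of a type and less RNA per cell cannot be told apart.

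The promoters of the heavy chains, of B2m and of Tap1 are shown because these genes responded to LPS by very different amounts. Matches to the kappaB and interferon response patterns searched differed between the heavy chains, B2m and Tap1. H2-K1 (log2 change with LPS in WT 1.41) and H2-D1 (0.39) were alike in them, and Tap1 (2.27) had no such match. Whether matches relate to the size of the response was not tested. RefSeq windows of 300 bases on GRCm38.p6, from 250 bases before the transcript start to 50 after it, were at hand for 8 of the 10 genes (not for Tap2 and Nlrc5). Capitals mark matches to the kappaB motif and, in B2m, also to a pair of interferon regulatory factor half-sites (GAAANNGAAA). The windows are H2-K1 (chr17:34000298-34000597, minus strand), H2-D1 (chr17:35262844-35263143, plus strand), B2m (chr2:122147437-122147736, plus strand) and Tap1 (chr17:34187306-34187605, plus strand), each written 5′ to 3′.
H2-K1: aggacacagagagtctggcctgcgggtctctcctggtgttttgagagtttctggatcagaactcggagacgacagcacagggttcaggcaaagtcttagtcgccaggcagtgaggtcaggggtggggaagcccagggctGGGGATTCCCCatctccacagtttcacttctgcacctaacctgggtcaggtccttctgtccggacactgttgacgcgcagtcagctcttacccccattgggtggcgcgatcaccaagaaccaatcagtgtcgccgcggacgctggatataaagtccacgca
H2-D1: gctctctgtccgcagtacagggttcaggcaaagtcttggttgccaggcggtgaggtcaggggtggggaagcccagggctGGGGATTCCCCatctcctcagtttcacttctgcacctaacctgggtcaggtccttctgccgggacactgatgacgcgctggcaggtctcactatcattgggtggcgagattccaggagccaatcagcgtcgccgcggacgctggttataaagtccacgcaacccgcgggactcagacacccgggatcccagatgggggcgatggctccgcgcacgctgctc
B2m: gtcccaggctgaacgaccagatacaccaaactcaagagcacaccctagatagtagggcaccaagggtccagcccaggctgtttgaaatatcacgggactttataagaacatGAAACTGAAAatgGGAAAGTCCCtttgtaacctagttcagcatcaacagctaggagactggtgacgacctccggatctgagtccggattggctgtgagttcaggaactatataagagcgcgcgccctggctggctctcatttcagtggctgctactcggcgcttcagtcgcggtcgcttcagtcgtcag
Tap1: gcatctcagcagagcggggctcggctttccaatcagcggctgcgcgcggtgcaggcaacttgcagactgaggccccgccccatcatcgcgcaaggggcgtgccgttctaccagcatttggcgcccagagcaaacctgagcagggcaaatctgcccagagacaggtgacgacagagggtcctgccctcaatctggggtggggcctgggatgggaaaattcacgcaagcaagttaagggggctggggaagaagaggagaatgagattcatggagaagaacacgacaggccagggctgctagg

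Both strands of each window were searched for fixed letter patterns, and a match describes letters only. Sites that depart from the patterns were not searched for, so a window without a match may still hold such an element. In H2-K1 the capitals hold 2 overlapping kappaB matches, the first from -111 to -102 bases relative to the start, and in H2-D1 2 overlapping matches, the first from -171 to -162. B2m has its interferon-type pair from -139 to -130 and a kappaB match from -126 to -117, which do not overlap. Of the 8 windows, 3 held a kappaB match against 4.51% of all 32851 windows, and 1 held the interferon-type pair against 3.44%. A gamma-activated sequence (TTCNNNGAA) was found in Psmb8 alone, from -97 to -89, against 8.3% of all windows. CCAAT was found in 6 of the 8, against 37.4%. The glucocorticoid response palindrome (GNACANNNTGTNC) was found in 0 of the 8, against 0.475%. The Tap1 and Psmb9 windows share 275 of their 300 bases, since these genes lie head to head, and their CCAAT match is the same site. H2-K1 and H2-D1 hold the same kappaB letters. The 8 windows are thus not separate sequences, which the counts above do not allow for. A second H2-K1 window, with its first kappaB match from -125 to -116, was not counted apart.

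By the deposited annotation, 7 of the 10 genes lie on chromosome 17. H2-K1 spans 34214991 to 34219321 on the minus strand and H2-D1 35481706 to 35486475 on the plus strand. Psmb9 (34400961 to 34406738, minus), Tap1 (34406527 to 34416199, plus), Psmb8 (34416695 to 34420428, plus) and Tap2 (34422501 to 34435295, plus) follow each other, and Tapbp spans 34134873 to 34148266 on the plus strand. B2m (121978167 to 121983564, plus) is on chromosome 2. Psmb10 (106662367 to 106665076, minus) and Nlrc5 (95160984 to 95253900, plus) are on chromosome 8. Counting did not use strand, so reads from the 212 bases that Tap1 and Psmb9 share cannot be told apart. H2-K1, H2-D1 and the H2-Q genes are near-identical in sequence, and their counts are uncertain to the extent that reads were split between them.

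Per kilobase of exon, the order of levels in WT control was B2m (mean 2539 CPM per kb), H2-D1 (1197), H2-K1 (480.4), Tapbp (123.7), Psmb10 (55.33), Psmb8 (28.48), Tap1 (16.56), Tap2 (13.6), Psmb9 (11.78) and Nlrc5 (9.76), with no overlap between neighbours over 4 libraries. Tap1 changed place most. It stood above Psmb8 with LPS alone, at 80.09 CPM per kb in WT and 78.5 in KO, and below Tap2 in WT dex+LPS (20.95 against 22.79), WT dex (9.244 against 11.92) and KO dex (9.957 against 12.57). In KO dex+LPS, Tap1 (57.51) and Psmb8 (55.65) overlapped over their libraries. Together the 10 genes took 0.759% of counts in WT control, 1.46% in WT LPS and 0.828% in WT dex+LPS, and 0.776%, 1.41% and 1.23% in the same groups of KO. The highest group mean was WT LPS for all 10, a mean that includes replicate 3, the highest of its group for 7 of the 10. Libraries of WT LPS and KO LPS overlapped for all of these genes but Tapbp, whose difference edgeR did not call (-0.05 ± 0.030, adjusted p = 0.369). The share of all tested genes without overlap was not computed. For H2-K1 the other WT LPS libraries stood at 3543 to 3702 CPM and the KO LPS libraries at 3660 to 3769 CPM. The order of the WT and KO LPS means thus depends on replicate 3 for some of the genes. The fold between the highest and the lowest group mean ran from 1.89 for H2-D1 to 8.66 for Tap1, with 6.31 for Tapbp.

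**Figure D1:**
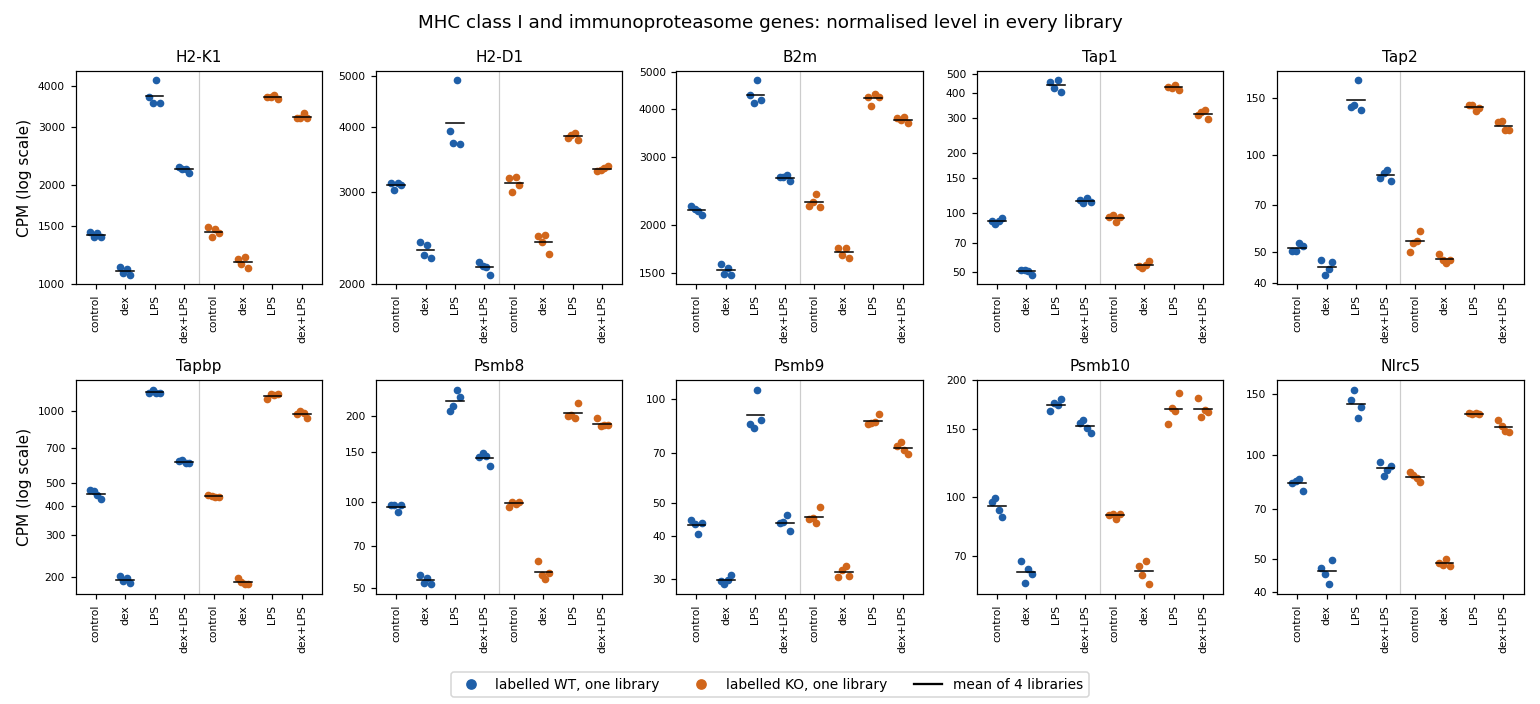
Level of each of the 10 genes in CPM (log axis) in every library of the 8 groups, WT in blue and KO in orange, with a black bar at the mean of 4 libraries. LPS groups have the highest mean of each genotype. Except for Psmb10, dex+LPS lies well below LPS in WT but closer to it in KO. The dex+LPS groups differ most clearly for Tap1 (112.2 to 118.7 CPM in WT against 297.7 to 328.4 in KO). Psmb10 falls little in WT (146.4 to 157.6 CPM with dex+LPS against 166.5 to 178.8 with LPS), and its KO libraries overlap.

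LPS raised all 10 genes in WT and in KO. Tap1 rose most, 4.84-fold in WT, and H2-D1 least, 1.31-fold. Among all tested genes 75.7% were called in WT, 37.4% higher and 38.3% lower. The median log2 change of the 10 genes was 1.15 in WT against -0.02 over all tested genes. In KO the median was 0.99 against -0.03, with 76.1% of all genes called, 36.8% higher and 39.3% lower.

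H2-K1 stood at 1438, 1386, 1431 and 1390 CPM in the WT controls and at 3702, 3543, 4160 and 3561 CPM with LPS, a log2 change of 1.41 ± 0.035 (adjusted p = 1.43e-36). H2-D1 stood at 3116, 3020, 3116 and 3098 CPM and rose to 3922, 3719, 4899 and 3697 CPM, a change of 0.39 ± 0.045 (adjusted p = 7.08e-11). Control and LPS libraries did not overlap for either heavy chain. B2m rose from 2126 to 2238 CPM to 4146 to 4754 CPM (1.00 ± 0.034). Without replicate 3 of WT LPS these changes were 1.35, 0.29 and 0.96, and all 10 genes were still called higher. With the counts of the 2 heavy chains summed as 1 feature, so that a split of counted reads between them does not matter, the change was 0.79. Reads shared with the H2-Q genes, or left uncounted, are not resolved by this sum.

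Tap1 rose from 91.2, 87.14, 90.7 and 93.78 CPM to 455.1, 427.8, 464.7 and 406.7 CPM (2.27 ± 0.039, adjusted p = 2.46e-43), the largest change of the 10. Its partner Tap2 rose by 1.52 ± 0.049 and the bridging factor Tapbp by 1.42 ± 0.031. Of the immunoproteasome subunits, Psmb8 rose by 1.23 ± 0.044, Psmb9 by 1.07 ± 0.054 and Psmb10 by 0.87 ± 0.046. Nlrc5 rose by 0.77 ± 0.044, from 78.93 to 85.52 CPM in control to 127.7 to 154.3 CPM. Without replicate 3 of WT LPS these 7 changes were 2.25 for Tap1, 1.45 for Tap2, 1.42 for Tapbp, 1.19 for Psmb8, 0.98 for Psmb9, 0.88 for Psmb10 and 0.81 for Nlrc5.

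In KO the LPS effects ran from 0.30 (H2-D1) to 2.19 (Tap1), and the difference between the genotypes, KO minus WT, was called for 0 of the 10 genes, with values from -0.18 to 0.04, where 3.72% of all genes were called, 2.07% higher and 1.64% lower. DESeq2 also called 0, and at an unadjusted p under 0.05, 4 of the 10 differed. In KO, LPS and lane cannot be told apart. The summed B cell markers fell with LPS from a mean of 102.9 to 0.5382 CPM in WT. Of these 6 markers, 3 had 0 counts in WT control and only 2 were tested. Whether B cells were present, and their part in the control levels, was not tested.

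Dexamethasone alone lowered all 10 genes, in both genotypes. Tapbp fell most, 2.3-fold in WT, and Tap2 least. In WT 49.4% of all tested genes were called, 28.2% lower and 21.2% higher, and the median of the 10 was -0.55 against -0.02 over all genes. In KO 48.5% were called, 27.6% lower and 20.9% higher, and the medians were -0.51 and -0.02. The dex and LPS comparisons share their control libraries. From WT control to WT dex, mean marker sums went from 15.46 to 96.2 CPM for neutrophils and 1.175 to 16.52 CPM for dendritic cells. They went from 102.9 to 53.65 CPM for B cells and 3.456 to 0.539 CPM for T and NK cells. These sums rest on few genes. Of 3 neutrophil markers tested 2 were called higher and 1 was not called. Of 3 dendritic cell markers tested 1 was higher and 2 were not called. Of the B cell list 2 were tested, and of the T and NK cell list 1, all lower. The part of these markers in the result was not tested.

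Tapbp stood at 464.6, 461.1, 444.4 and 424.5 CPM in the WT controls and at 202.1, 191.9, 198 and 188.7 CPM with dex (-1.20 ± 0.031, adjusted p = 1.66e-34), and the change in KO was -1.20 as well. The next largest falls in WT were those of Psmb8 (-0.85 ± 0.047), Nlrc5 (-0.85 ± 0.047) and Tap1 (-0.84 ± 0.042). Psmb10 (-0.56), Psmb9 (-0.53), B2m (-0.52), H2-D1 (-0.41) and H2-K1 (-0.36) followed. Tap2 fell by 0.19 ± 0.053 (adjusted p = 0.00197), from 50.18 to 53.18 CPM to 42.53 to 47.08 CPM. None of the 10 had overlapping libraries between WT control and WT dex, and the share of all tested genes without overlap was not computed. The genotype difference of the dex effect was called for 0 of the 10 and for 0% of all genes by edgeR, with 0 of the 10 by DESeq2 and 0 at an unadjusted p under 0.05.

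**Figure D2:**
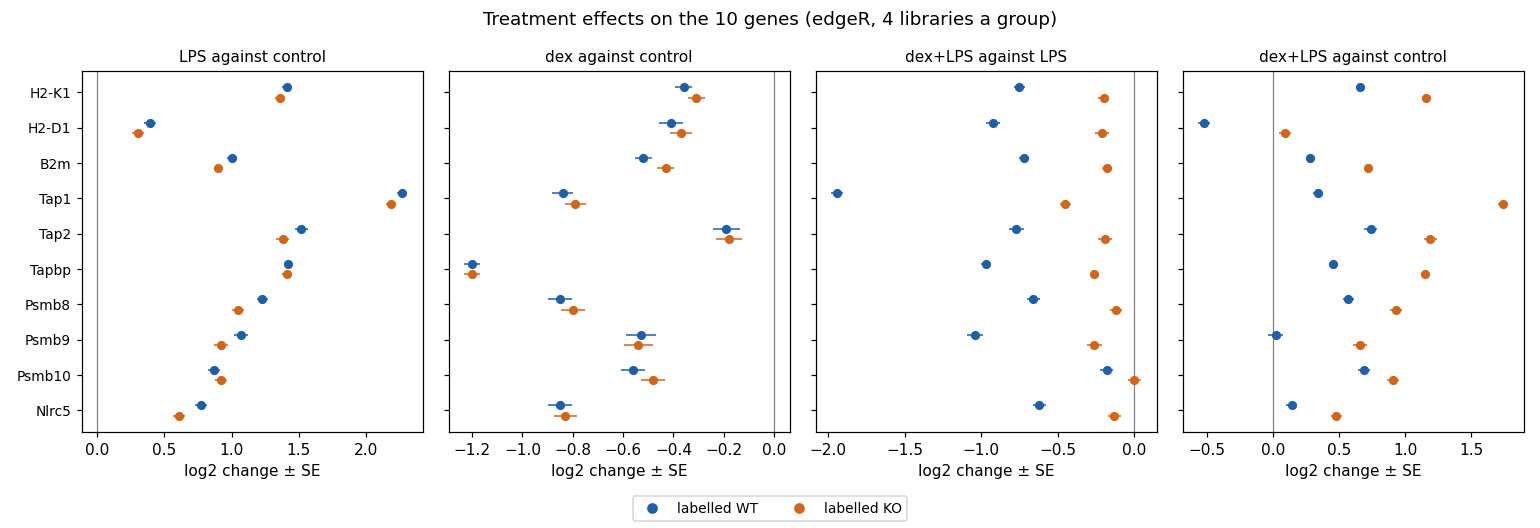
Log2 change ± SE of each gene for 4 comparisons in WT (blue) and KO (orange), edgeR with 4 libraries a group. Points of the genotypes nearly coincide for LPS and for dex alone, while for dex+LPS against LPS those of WT lie further below 0 for every gene, with Tap1 at -1.94 in WT and -0.45 in KO.

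Added to LPS, dexamethasone lowered all 10 genes in WT cells. Tap1 was 3.82-fold lower, Psmb9 2.06-fold, Tapbp 1.96-fold, H2-D1 1.89-fold and H2-K1 1.68-fold, while Psmb10 moved least. In this comparison 69.2% of all tested genes were called, 34.5% lower and 34.6% higher, and the median of the 10 genes was -0.76 against 0.01. In KO cells 9 of the 10 were lower, by less, with a median of -0.20 against 0.00, where 38.1% of all genes were called, 17.3% lower and 20.8% higher. Within each genotype these libraries came from a single lane. From WT LPS to WT dex+LPS, mean marker sums went from 18480 to 30830 CPM for macrophages and 72.29 to 28.9 CPM for neutrophils. For dendritic cells the sum went from 10.78 to 0.909 CPM. Single markers went both ways. Of the 8 macrophage markers 4 were called higher and 3 lower, and of 3 neutrophil markers tested 1 was higher and 2 lower. Of 3 dendritic cell markers tested 1 was lower and 2 were not called. The part of these markers in the result was not tested.

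Tap1 stood at 455.1, 427.8, 464.7 and 406.7 CPM with LPS and at 115.2, 112.2, 118.7 and 112.8 CPM with dex+LPS in WT, a log2 change of -1.94 ± 0.038 (adjusted p = 3.35e-40). In KO the values were 432.6, 426.9, 442.1 and 417.8 CPM with LPS and 311.2, 322.4, 328.4 and 297.7 CPM with dex+LPS (-0.45 ± 0.036, adjusted p = 9.15e-15). The LPS libraries of the genotypes overlapped, whereas the dex+LPS libraries were separated by a wide gap. Tapbp went from 1193, 1225, 1195 and 1186 CPM to 618.9, 619.5, 601.9 and 606.7 CPM in WT (-0.97 ± 0.030). In KO it went from 1125, 1178, 1163 and 1177 CPM to 972.2, 998.7, 979.9 and 936.4 CPM (-0.26 ± 0.030). The change of Tap2 was -0.77 ± 0.047 in WT and -0.19 ± 0.046 in KO.

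H2-K1 fell from 3702, 3543, 4160 and 3561 CPM to 2268, 2240, 2235 and 2181 CPM in WT (-0.75 ± 0.034) and from 3705, 3718, 3769 and 3660 CPM to 3207, 3209, 3301 and 3208 CPM in KO (-0.20 ± 0.034). H2-D1 fell to 2208, 2162, 2158 and 2084 CPM in WT (-0.92 ± 0.046), below its WT control libraries, and from 3777 to 3895 CPM to 3286 to 3356 CPM in KO (-0.21 ± 0.045). B2m, which pairs with all class I heavy chains, changed by -0.72 ± 0.034 in WT and -0.18 ± 0.033 in KO. The summed heavy chains changed by -0.83 in WT and -0.20 in KO.

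Among the immunoproteasome subunits Psmb9 fell most. It stood at 84.91, 82.44, 106.4 and 86.91 CPM with LPS and at 43.62, 44.12, 46.07 and 41.33 CPM with dex+LPS in WT (-1.04 ± 0.054, adjusted p = 5.33e-23), and at 84.68, 85.36, 85.96 and 90.71 CPM and then 73.36, 75.19, 71.23 and 69.15 CPM in KO (-0.26 ± 0.051). Psmb8 changed by -0.66 ± 0.043 in WT and -0.12 ± 0.042 in KO (adjusted p = 0.0163), and the KO call was lost without replicate 4 of KO LPS (-0.08) or replicate 2 of KO dex+LPS (-0.11). Psmb10 stood at 166.5, 174.5, 172.5 and 178.8 CPM with LPS and at 154.9, 157.6, 150.3 and 146.4 CPM with dex+LPS in WT (-0.18 ± 0.044, adjusted p = 0.000266). In KO it did not pass the test (0.00 ± 0.044, adjusted p = 0.971), and its libraries overlapped. Psmb10, which lies on chromosome 8 apart from the other subunits, was thus the subunit with the smallest change in either genotype. Nlrc5 changed by -0.62 ± 0.043 in WT and -0.13 ± 0.043 in KO (adjusted p = 0.0141), the KO call being lost without replicate 4 of KO dex+LPS (-0.11). Without normalization the calls of Psmb8 and Nlrc5 in KO and of Psmb10 in WT were lost, at -0.09, -0.10 and -0.09.

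Without replicate 3 of WT LPS all 10 genes were still lower in WT, with Tap1 at -1.91, Tapbp at -0.97, Psmb9 at -0.95, H2-D1 at -0.81, Tap2 at -0.70, H2-K1 at -0.69, B2m and Nlrc5 at -0.67, Psmb8 at -0.62 and Psmb10 at -0.18.

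The difference between the genotypes in the effect of dexamethasone under LPS was called for all 10 genes, each with the smaller fall in KO. It ran from 0.18 ± 0.062 for Psmb10 (adjusted p = 0.015) to 1.49 ± 0.052 for Tap1 (adjusted p = 6.5e-29), with a median of 0.56 against 0.00 over all genes. Of all tested genes 45.4% were called, 23.9% higher and 21.5% lower. Psmb9 followed Tap1 at 0.78 ± 0.074, then Tapbp (0.72 ± 0.042), H2-D1 (0.71 ± 0.064), Tap2 (0.58 ± 0.065), H2-K1 (0.55 ± 0.048), Psmb8 (0.54 ± 0.060), B2m (0.53 ± 0.047) and Nlrc5 (0.49 ± 0.061). Without replicate 3 of WT LPS the values were 1.46 for Tap1, 0.69 for Psmb9, 0.60 for H2-D1, 0.54 for Nlrc5 and 0.51 for Tap2, with Tapbp at 0.72, H2-K1, B2m and Psmb8 at 0.49 and Psmb10 at 0.18. The Psmb10 call did not hold with RLE size factors (0.15, adjusted p = 0.0517), DESeq2 (0.15, 0.0595) or no normalization (0.11, 0.135), nor without replicate 1 of KO LPS (0.14, 0.0609) or of KO dex+LPS (0.15, 0.0557).

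Between libraries labelled KO and WT, nearly all calls of these genes fell in the dex+LPS groups. In control, 0 of the 10 were called by edgeR or DESeq2 (values from -0.08 to 0.08, 1 at an unadjusted p under 0.05), where 0.541% of all genes were called. With dex 1 was called, B2m, higher by 0.15 (adjusted p = 0.0087), where 0.901% of all genes were called (0.541% higher, 0.360% lower), and this call was lost without replicate 2 of WT dex or replicate 3 of KO dex. With LPS 1 was called, Psmb8, lower by 0.14 (adjusted p = 0.0205), where 10.2% of all genes were called, 4.66% higher and 5.51% lower. The Psmb8 call was lost with a lane term, with the compared groups alone, without normalization and without any of 5 libraries in turn (replicates 3 and 4 of WT LPS, replicates 1, 2 and 3 of KO LPS).

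With dex+LPS all 10 were called higher in KO, where 56.4% of all genes were called, 28.5% higher and 27.9% lower. The libraries of the genotypes did not overlap for any of the 10, and the share of all genes without overlap was not computed. Tap1 differed by 1.46 ± 0.038 (2.75-fold, adjusted p = 1.67e-34), Psmb9 by 0.72 ± 0.054, Tapbp by 0.67 ± 0.030, H2-D1 by 0.62 ± 0.046 and H2-K1 by 0.53 ± 0.034. Tap2 (0.51), B2m (0.50), Psmb8 (0.40), Nlrc5 (0.40) and Psmb10 (0.15 ± 0.044, adjusted p = 0.0042) differed by less. Lane and genotype cannot be told apart in this comparison, since the single lane 2 library without LPS is all that a lane term rests on. With that term the 10 differences were still called, from 0.29 for Psmb10 to 1.37 for Tap1. The difference of the dex effects compares changes that were each within a lane.

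**Figure D3:**
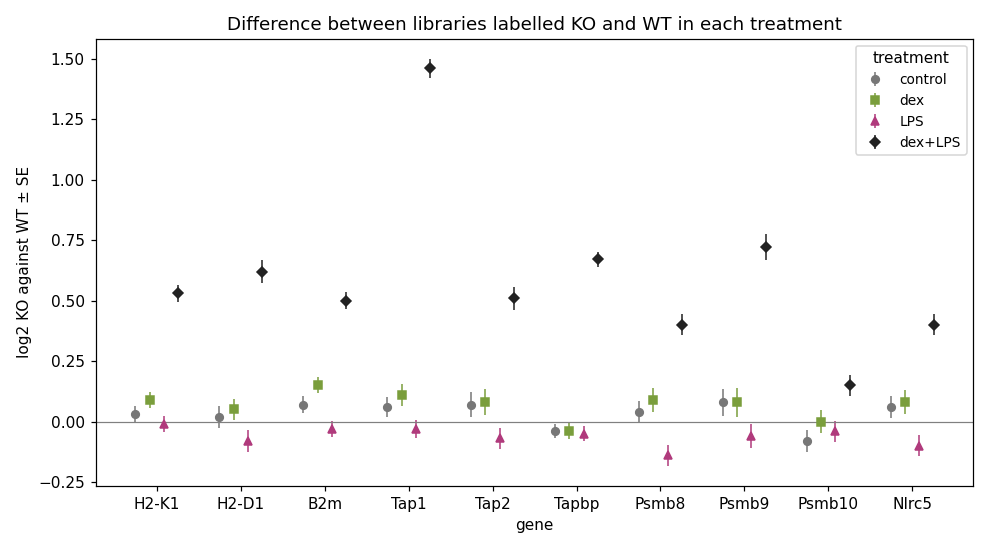
Log2 difference ± SE between libraries labelled KO and WT for each gene, with a symbol for each treatment (edgeR, 4 libraries a group). Control, dex and LPS points lie between -0.14 and 0.15, whereas the dex+LPS points lie between 0.15 for Psmb10 and 1.46 for Tap1.

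Levels of some other genes differed in the same groups. A set of 3 genes known as direct glucocorticoid receptor targets was chosen after its values were seen, so it is described with no test. Fkbp5, an immunophilin that binds the receptor complex, stood at 668.6 to 695 CPM in WT dex+LPS and at 228 to 299.2 CPM in KO dex+LPS, and at means of 877.9 and 836.4 CPM with dex alone. With dex+LPS, Tsc22d3 (GILZ) had means of 139 CPM in WT and 59.83 CPM in KO, and the clock gene Per1 of 161.7 and 100.4 CPM. Of all tested genes 21.5% were called lower in the KO minus WT difference of the dex effect under LPS. The summed macrophage markers stood at a mean of 30830 CPM in WT dex+LPS and 22810 CPM in KO dex+LPS, but single markers went both ways, 3 of the 8 higher and 4 lower in KO, from Mertk at -1.41 to Fcgr1 at 1.40. The 6 dendritic cell markers summed to 0.909 and 8.312 CPM, nearly all of the latter from Ccr7 (7.68 CPM), with 1 of the 6 at 0 counts in KO. The part of these in the result was not tested.

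LPS on top of dexamethasone raised 9 of the 10 genes in WT and all 10 in KO. The values in WT ran from 0.55 (Psmb9) to 1.65 (Tapbp), with H2-D1 at -0.11 (adjusted p = 0.0275). The summed heavy chains rose by 0.36 in WT. Of all genes 73.3% were called in WT, 35.5% higher and 37.8% lower. In KO they ran from 0.46 (H2-D1) to 2.53 (Tap1), where 75.9% were called, 38.5% higher and 37.4% lower. The H2-D1 call in WT was lost with RLE size factors, with DESeq2 and without any of 3 libraries in turn (replicates 1 and 3 of WT dex, replicate 4 of WT dex+LPS).

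Against untreated cells, WT cells with both agents had 8 of the 10 genes higher, where 72.3% of all genes were called, 34.5% higher and 37.8% lower. Tap2 (0.74), Psmb10 (0.69), H2-K1 (0.66), Psmb8 (0.57), Tapbp (0.45), Tap1 (0.34), B2m (0.28) and Nlrc5 (0.14) were higher, though without normalization Nlrc5 was at -0.02. H2-D1 was lower (-0.52), and Psmb9 did not pass the test (0.02, adjusted p = 0.739). With the counts of the heavy chains summed, the change in WT was -0.04 and did not pass the test (adjusted p = 0.401). In KO 9 of the 10 were higher, where 74.0% of all genes were called, 37.5% higher and 36.5% lower, from 0.48 for Nlrc5 to 1.74 for Tap1. H2-D1 in KO did not pass the test (0.09, adjusted p = 0.0763), though it did with the compared groups alone and with no filter on low counts, and without normalization it was at -0.12.

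The dex by LPS interaction says whether dexamethasone acted differently with LPS than without it. In WT it was called for all 10, 6 lower and 4 higher, where 60.4% of all genes were called. Fold decreases by dex were larger under LPS for Tap1 (-1.09), Tap2 (-0.58), Psmb9 (-0.51), H2-D1 (-0.50), H2-K1 (-0.38) and B2m (-0.20). They were smaller under LPS for Psmb10 (0.38), Tapbp (0.23), Nlrc5 (0.22) and Psmb8 (0.19). Without replicate 3 of WT LPS all 10 calls held, with Tap1 at -1.07, Tap2 at -0.51, Psmb9 at -0.42, H2-D1 at -0.40, H2-K1 at -0.33 and B2m at -0.16, and Psmb10 at 0.38, Tapbp and Psmb8 at 0.23 and Nlrc5 at 0.18. In KO 8 of the 10 were called, all higher, where 41.8% of all genes were called, 25.7% higher and 16.2% lower, with Tapbp at 0.95, Nlrc5 at 0.70 and Psmb8 at 0.67. The H2-D1 call among them (0.16) was lost with RLE size factors, DESeq2, a lane term and without any of 7 libraries in turn (KO control 1 and 3, KO dex 2 and 4, KO LPS 1 and 4, KO dex+LPS 4). H2-K1 (0.10) and Tap2 (-0.01, of either sign among the alternatives) did not pass the test in KO, though H2-K1 passed without normalization (0.11), with the compared groups alone (0.10), with a replicate block (0.11) and without KO control 2 or KO dex 3 (0.12 each).

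Each immunoproteasome subunit was next set against the constitutive subunit whose place it takes, as a ratio of CPM per kilobase in each library. These ratios are a description with no test. The lengths used sum all exons of a gene, 3381 bases for Psmb8 and 899 for Psmb5. Without length scaling Psmb8 to Psmb5 was 1.611 to 1.693 in the WT control libraries. The size of a ratio thus depends on the lengths, and for this pair also which subunit stood higher, while the order of groups does not. Psmb8 to Psmb5 was 0.438 ± 0.011 (SD, n = 4) in WT control, 0.280 ± 0.016 with dex, 0.390 ± 0.0070 with LPS and 0.239 ± 0.0093 with dex+LPS. In KO it was 0.487 ± 0.021, 0.294 ± 0.014, 0.383 ± 0.019 and 0.354 ± 0.0050. LPS libraries thus lay below control libraries in both genotypes although Psmb8 itself rose, while Psmb5 rose by 1.40 ± 0.046 in WT. The dex+LPS libraries of the genotypes did not overlap, at 0.226 to 0.249 in WT and 0.35 to 0.361 in KO.

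Psmb9 to Psmb6 was 0.239 in WT control, 0.251 with dex, 0.223 ± 0.0037 with LPS and 0.164 ± 0.0099 with dex+LPS, and 0.243, 0.251, 0.250 ± 0.0076 and 0.221 ± 0.013 in KO. Psmb10 to Psmb7 was 3.59 in WT control, 2.96 with dex, 3.96 with LPS and 3.55 with dex+LPS, and 3.41, 2.90, 3.79 and 3.88 in KO. WT dex+LPS libraries were the lowest of all groups for the first 2 ratios, and by mean the dex groups were lowest for the third.

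**Figure D4:**
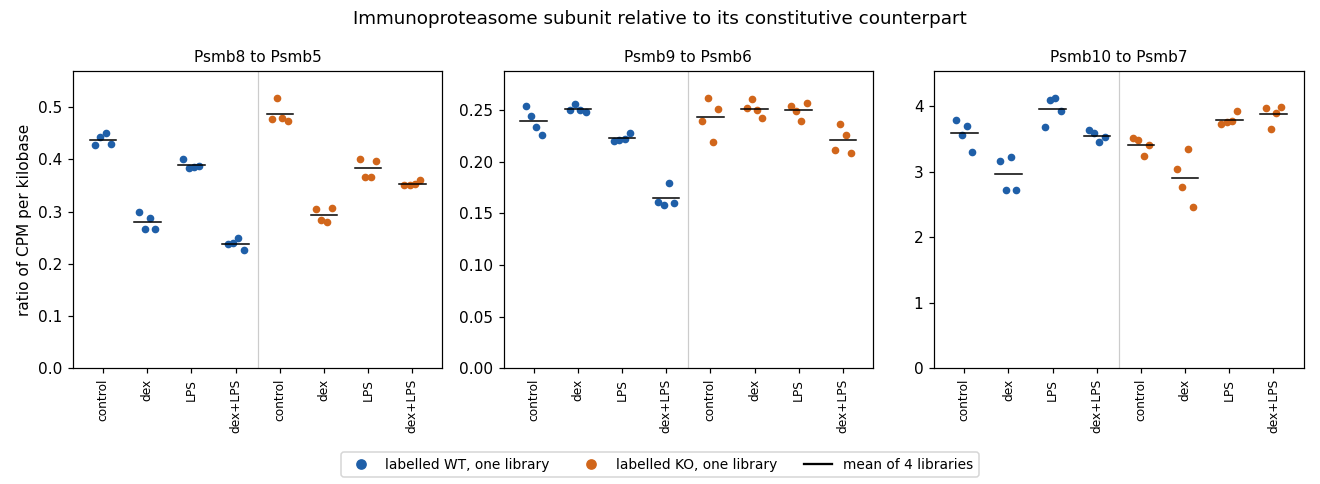
Ratio of each immunoproteasome subunit to its constitutive counterpart, in CPM per kilobase, in every library (WT blue, KO orange, bar at the mean of 4). Psmb8 to Psmb5 lies at 0.226 to 0.249 in WT dex+LPS and at 0.35 to 0.361 in KO dex+LPS.

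Among other genes of the proteasome, calls under dexamethasone and LPS went in both directions. Of the 3 constitutive catalytic subunits 1 was lower in WT, Psmb6 (-0.60), while Psmb5 (0.04) and Psmb7 (-0.03) did not pass the test, and in KO 0 of the 3 passed in edgeR, with 0 at an unadjusted p under 0.05. The genotype difference was 0.52 for Psmb6, -0.05 for Psmb5 and 0.00 for Psmb7. Of 11 other genes of the 20S core 3 were higher and 6 lower in WT, with a median of -0.10, and 2 and 2 in KO. For dex+LPS against LPS, counts here and in later lists stand against 69.2% of all tested genes called in WT and 38.1% in KO. Of 5 activator and inhibitor genes 3 were lower and 2 higher in WT. The lower ones were Psme1 (-0.68) and Psme2 (-0.63), the subunits of the interferon-inducible PA28 cap, and the inhibitor Psmf1 (-0.62), and in KO Psme1 changed by -0.22 and Psme2 by -0.15. Of 5 assembly chaperones 2 were higher and 1 lower in WT. With LPS alone all 3 constitutive subunits rose in WT (Psmb5 1.40, Psmb6 1.17, Psmb7 0.73), where 37.4% of all tested genes were called higher. So did 10 of the 11 other core genes (median 0.68) and all 5 of the activator list, with Psme2 at 1.70. With dex alone the 3 constitutive subunits fell in WT, by 0.21 to 0.60, and Psme2 fell by 1.02, where 28.2% of all genes were lower.

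Of 7 further genes of class I loading and folding in the endoplasmic reticulum, 6 were higher and 1 was lower with dex+LPS than with LPS in WT. The lower one was Tapbpl (-0.60), which edits the peptides that class I binds, and the higher ones included the glucosyltransferase Uggt1 (0.56), the disulfide isomerase Pdia3 (0.49) and calreticulin (Calr, 0.29). In KO 3 were higher and 1 lower. Of 17 other class I and class I-like genes 14 were tested, of which 11 were lower and 2 higher in WT, and 9 and 1 in KO. H2-Q4 (-1.92), H2-T22 (-1.47) and H2-T23 (-1.26) were lower, and Hfe, which controls iron uptake, was higher (1.30). H2-Q7 had means of 2.761 CPM in control, 124.9 with LPS and 21.99 with dex+LPS in WT, and 3.477, 139.6 and 96.83 CPM in KO. H2-Q2 had 67 counts over the 4 WT LPS libraries and 0 over those of WT dex+LPS, at least 23.7-fold lower when set against 3 counts over the group, and the list's median in WT was -1.36 with it at that bound and -1.26 without it. The genotype difference was higher for 11 and lower for 1 of the 14, with H2-Q7 at 1.98 and H2-Q4 at 1.48. In that difference 23.9% of all tested genes were called higher and 21.5% lower.

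Of 17 genes that regulate class I, 13 were lower and 3 higher with dex+LPS than with LPS in WT, with a median of -0.36, and 8 lower and 0 higher in KO. The interferon signal transducer Stat2 (-1.28) and the transcription factors Irf1 (-1.12), Irf8 (-1.03) and Rela (-0.79, a kappaB factor) were lower in WT, and Irf2 was higher (0.43). In KO Irf1 changed by -0.30. The genotype difference was called higher for 11, including Stat2 (0.96), Irf1 (0.82), Irf8 (0.66) and Rela (0.59), and lower for 1, Irf2 (-0.35). Of all genes 23.9% were higher and 21.5% lower in that difference. With dex alone 11 were lower in WT, including Stat2 (-1.46), and Irf2 was higher (0.82). Of all genes 28.2% were lower and 21.2% higher with dex. With LPS alone 9 were higher and 4 lower in WT, where 37.4% of all genes were higher and 38.3% lower, with Irf1 at 1.06.

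Of 11 interferon genes, receptors and feedback genes 8 were tested, of which 6 were lower and 1 was higher in WT with dex+LPS than with LPS. Socs1, which dampens cytokine signalling, changed by -2.85 in WT and -0.46 in KO. The receptor chain Ifnar1 was lower (-0.81) and Ifngr1 higher (0.51) in WT. Ifng had 0 counts in every group but KO LPS, where it had 4, and Ifnb1 had at most 7 counts in any group after 24 h. Of 9 MHC class II genes, the pathway for peptides taken up from outside the cell, 8 were lower and 1 higher in WT, with a median of -1.81, and 6 were lower in KO, with a median of -0.31. Its transactivator Ciita changed by -2.43 in WT and -0.52 in KO.

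**Figure D5:**
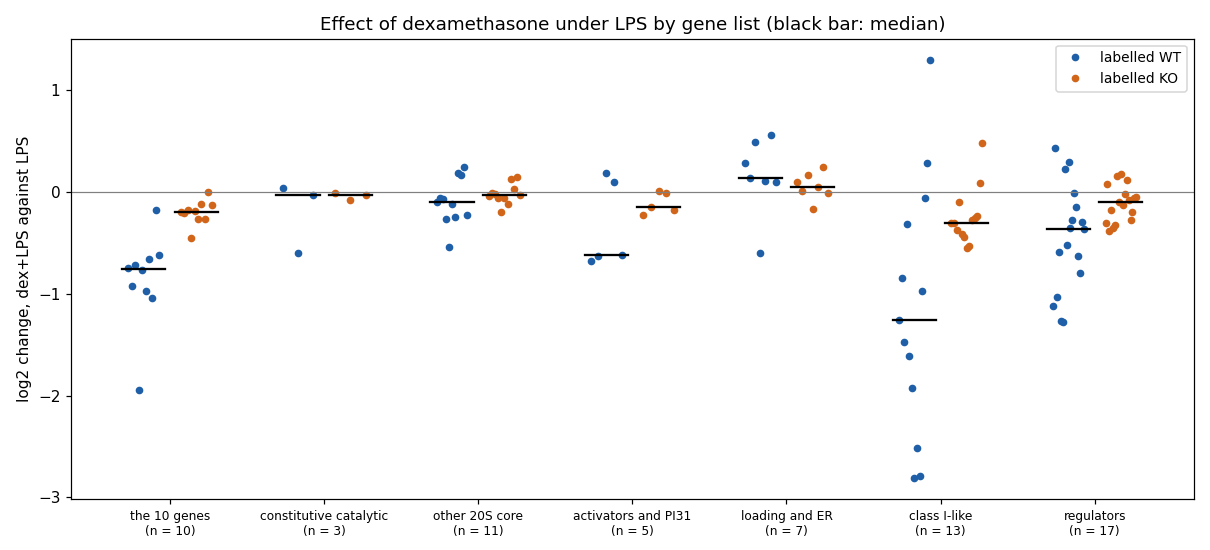
Log2 change of dex+LPS against LPS for the tested genes of each list in WT (blue) and KO (orange), 1 point a gene and a black bar at the median; H2-Q2, with 0 counts in WT dex+LPS, is left out. The 10 class I and immunoproteasome genes have a median of -0.76 in WT and -0.20 in KO, and the other 20S core genes -0.10 in WT.

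Over the 8 group means of log2 CPM, the profile of each gene was correlated with the mean standardised profile of the 10, as a description over groups that share libraries and treatments. Pearson's r ran from 0.802 for H2-D1 to 0.998 for B2m. Between pairs it was lowest for H2-D1 and Psmb10, at 0.59. Outside the 10, the tested genes with the highest r were Isg20 (0.999), Slfn1, Hsp90aa1, Nup62 and Tmem132a (each 0.998). Isg20 stood at means of 9.932, 3.497, 61.58 and 16.02 CPM in WT control, dex, LPS and dex+LPS, and at 9.956, 3.457, 54.57 and 41.46 CPM in KO.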

How the data were processed

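RNA of 32 macrophage libraries was sequenced as read pairs. The deposited counts are whole-number raw counts of pairs per gene, made by the authors with featureCounts 2.0.0 over exons, unstranded, on the GENCODE vM32 annotation, per the file headers. STAR is named in the submitters' processing notes, with no version given. These notes name GRCm38 and mm10, whereas the annotation belongs to a later mouse build, so gene positions are those of the deposited table and promoter windows those of RefSeq on GRCm38.p6.

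Counts were fitted with edgeR 4.0.16 (R 4.3.3) using TMM, filterByExpr by group and a quasi-likelihood fit with 8 group means, which left 24 residual degrees of freedom. The 19 comparisons were two-sided, with Benjamini-Hochberg adjustment over 14427 genes and calls at an adjusted p under 0.05. CPM and CPM per kilobase of exon length were computed here from the same counts. Genes without a symbol held 0.846% of counts. Totals of 17559079 to 25049200 pairs set the counting precision. Library pairs within groups differed by a chi-square of 2.01 to 16.7 per degree of freedom, and none was counted as a duplicate.

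The 10 genes and all lists were chosen with earlier results of these data known. Named were all 10 genes, the 3 constitutive catalytic subunits, Psme1, Psme2, up to 4 further genes per list with the smallest adjusted p, and the 5 genes most alike in pattern. Other genes named from the lists, including Psmf1, Ifnar1, Ifngr1, Ifng, Ifnb1, H2-Q2 and H2-Q7, and the glucocorticoid targets, were chosen after their values were seen. As alternatives, TMM was replaced by RLE or left out, low counts were not filtered, DESeq2 1.42.0 took the place of edgeR, calls needed an adjusted p under 0.01, only the compared groups were fitted, and a replicate block or lane term was added. Lane 3 libraries alone, summed heavy chains, and each library left out in turn completed them. No columns outside the 32 libraries were used. One gene of the regulator list is not reported here by name.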

Additional observations from a re-analysis of the deposited data

Results flagged for a closer look

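In 5 of the 80 combinations of a gene with a group, 1 library lay far from the other 3, which chance gives for about 1 in 20 groups. H2-K1 was 3301 CPM in replicate 3 of KO dex+LPS, with the others at 3207 to 3209 CPM. Tap2 was 169.4 CPM in replicate 3 of WT LPS, with the others at 137.7 to 142.3 CPM, and that library also stood apart over all genes. Psmb8 was 92.4 CPM in replicate 3 of WT control, against 97.3 to 97.87 CPM, and 221.8 CPM in replicate 4 of KO LPS, against 196.9 to 201.1 CPM. Psmb10 was 87.39 CPM in replicate 3 of KO control, against 89.83 to 90.28 CPM.

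All 10 genes differed between the genotypes in the effect of dexamethasone under LPS by a direct test of that difference. On the log2 scale, KO minus WT, it was 1.49 for Tap1, 0.78 for Psmb9, 0.72 for Tapbp, 0.71 for H2-D1, 0.58 for Tap2, 0.55 for H2-K1, 0.54 for Psmb8, 0.53 for B2m, 0.49 for Nlrc5 and 0.18 for Psmb10. Of all tested genes 45.4% differed in the same test.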

How the results depend on the processing

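The recomputed values were all those of the treatment comparisons, the interactions, KO against WT with dex+LPS and the genotype difference under LPS, and of the other genotype comparisons the called ones alone, 142 in all. They gave 2697 alternative values, of which 2626 kept their direction and their side of the threshold. Counts of genes called moved by over 1.5 times in few comparisons. For dex+LPS against dex in WT, the 1 gene called lower (H2-D1) became 0 under an adjusted p under 0.01, RLE size factors, lane 3 libraries alone, summed heavy chains and DESeq2, and ranged from 0 to 1 with a library left out. For dex+LPS against control, the 1 lower gene in WT became 2 without normalization and 0 with summed heavy chains, and the 0 in KO became 1 without normalization. For KO against WT with dex, the 1 higher gene (B2m) became 2 with the compared groups alone and ranged from 0 to 1 with a library left out. For KO against WT with LPS, the 1 lower gene (Psmb8) became 0 under an adjusted p under 0.01, without normalization, with a lane term and with the compared groups alone, and ranged from 0 to 1 with a library left out. For the genotype difference of the LPS effect, the 0 genes lower ranged from 0 to 1 with a library left out, reaching 1 without replicate 1 or 3 of WT LPS or replicate 4 of KO LPS.

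Signs turned for values near 0. Without normalization, Psmb10 was 0.03 for dex+LPS against LPS in KO, and Psmb9 was -0.14 (adjusted p = 0.021) and Nlrc5 -0.02 for dex+LPS against control in WT. H2-D1 was -0.12 (adjusted p = 0.0103) for the same comparison in KO, and Tap2 was 0.00 for the dex by LPS interaction in KO, as it also was without the filter on low counts, and 0.03 with a lane term. With a library left out, Psmb10 ranged from -0.04 to 0.04, Psmb9 from 0.00 to 0.05 and Tap2 from -0.05 to 0.03 in these comparisons. Leaving out normalization moved the median of all genes by over 0.1, to -0.28 for LPS against control in WT and -0.27 in KO, to -0.24 and -0.25 for dex+LPS against dex, and to -0.20 and -0.21 for dex+LPS against control. For LPS against control H2-D1 then rose by 0.06 in KO and was not called.

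Libraries with the same replicate number were not treated as pairs, since over 112 such pairs deviations correlated at -0.03 to 0.06. However, 18 of 32 libraries correlated best with their own number, where an even spread over 4 numbers gives 8. With a replicate block 10 genes were lower for dex+LPS against LPS in WT and 9 in KO, 10 differed between the genotypes in this effect, 10 were higher for dex+LPS against control in KO, and no call was lost. It added 2 calls, H2-D1 in that last comparison and H2-K1 in the dex by LPS interaction in KO (0.11). Depth limits only the lowest of the genes discussed, the interferon genes and H2-Q2. Lane and genotype cannot be told apart under LPS, the origin of replicates is not stated, and reads shared between near-identical class I genes are not resolved.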
